A study of Mus musculus with 6 samples.

Results

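The genes described here carry the symbols of the proteins of the cytoplasmic and the mitochondrial ribosome, and were measured in mouse oocytes with and without the Polycomb gene Rnf2. They were chosen by symbol from the deposited expression table: every gene named Rpl, Rplp, Rps or Rpsa was taken for the cytoplasmic ribosome and every gene named Mrpl or Mrps for the mitochondrial one. This gave 158 of 24028 genes. By symbol, 81 count as cytoplasmic (49 for the 60S and 32 for the 40S subunit) and 77 as mitochondrial (48 for the 39S and 29 for the 28S subunit). The symbol alone set the subunit (Mrpl for the 39S, Mrps for the 28S), and the place of each protein was not checked. No measured value entered the choice. The symbol rule also takes in Rps4l, which is annotated as a processed pseudogene, and Mrps36, whose protein is now placed in another complex. Symbols with further letters after the number, such as Rpl36al, and ribosomal proteins with other names are not among them.

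RNA was measured in germinal vesicle oocytes, which have finished growth and are arrested before meiotic maturation. The 3 control libraries came from Ring1 -/-; Rnf2 f/f females, and the 3 dKO libraries from Ring1 -/-; Rnf2 f/f; Zp3-cre females, all about 3 months old and of a mixed FVB, 129/Sv and C57BL/6J background. Ring1 and Rnf2 encode the ubiquitin ligases at the core of Polycomb repressive complex 1 (PRC1), and both groups lack Ring1, so the comparison shows what the loss of Rnf2 adds to that of Ring1. Zp3-cre drives the recombinase in growing oocytes, and what the transgene itself does and what the loss of Rnf2 does cannot be told apart. Each library held 15 oocytes of 1 female, so replicates were separate animals. Each replicate number stands for 1 sequencing lane that a control and a dKO library shared. The index sequence was the same in all dKO libraries and another in all controls, so the group and the index cannot be told apart.

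Ribosomes make every protein of the cell, and mitochondria carry a separate set that translates only the few proteins encoded in mitochondrial DNA. The mammalian mitochondrial ribosome descends from a bacterial one, has lost much of its RNA and has gained proteins with no bacterial counterpart. A growing oocyte builds up ribosomes and mitochondria that the early embryo later uses. Transcription falls silent when growth is complete, so the RNA of a germinal vesicle oocyte is largely a stored pool. Messages for cytoplasmic ribosomal proteins typically begin with a run of pyrimidines, through which mTOR signalling controls their translation, while mitochondrial ribosomal proteins are made in the cytoplasm and imported.

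Values are FPKM, fragments set against the length of the transcript and the size of the library, so levels of different genes are compared per length. Summed FPKM over all genes ranged from 318273 to 327480 in controls and from 278701 to 309549 in dKO libraries. Absolute depth is unknown, and depth relative to control replicate 1 was 0.903 and 1.02 for control replicates 2 and 3 and 0.661, 0.805 and 1.08 for dKO replicates 1, 2 and 3, so low values were least precise in dKO replicate 1. Rnf2 stood at 53.7, 46.8 and 48.2 FPKM in control libraries and at 14.8, 8.44 and 5.31 FPKM in dKO oocytes, as labelled. All 12 oocyte markers were present in every library, with a summed level of 8766 to 9301 FPKM in controls and 5176 to 7486 FPKM in dKO oocytes, and of these Kit and Bmp15 fell (limma adjusted p = 0.0106 and 0.0418, and 0.0164 and 0.0740 with the replicate block). The 16 granulosa and cumulus markers summed to 27.2 to 33.1 FPKM in controls and 48.9 to 50.6 FPKM in dKO oocytes. Of these markers 8 (Foxl2, Nr5a1, Hsd17b1, Amhr2, Fst, Cyp11a1, Star and Ptx3) were under 1 FPKM in all 6 libraries, and Fshr, Has2 and Nr5a2 rose. Of the 6 that passed the filter, 5 had a positive change and 1 a negative one, lower in every dKO library. The 10 blood, immune and vessel markers summed to 21.7 to 28.9 FPKM in controls and 16.6 to 19.3 FPKM in dKO libraries, and of these Pecam1 fell (log2 change -0.72; limma adjusted p = 0.0280, and above the threshold with no filter, 0.0505, with array weights, 0.0766, or without control replicate 1 or 3 or dKO replicate 1, up to 0.130). The part of these differences in the results that follow was not tested, and fewer cells of a type and less RNA per cell cannot be told apart in such pools.

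Cytoplasmic ribosomal protein genes spanned a wide range of levels in control oocytes. Their median control mean was 23.8 FPKM, 52 of the 81 lay between 10 and 100 FPKM, 11 were at 100 FPKM or more and 3 were under 1 FPKM. Mitochondrial members were lower, with a median of 10.4 FPKM, 39 of 77 between 10 and 100 FPKM, 1 at 100 FPKM or more and 2 under 1 FPKM. The medians of the dKO means were 24.6 FPKM for the cytoplasmic and 9.07 FPKM for the mitochondrial members. The order of genes was nearly the same in both groups, with a Spearman correlation between control and dKO means of 0.971 over 81 cytoplasmic and 0.964 over 77 mitochondrial genes. Points of such a correlation share a library and an annotation, and genes are not independent replicates.

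**Figure D1:**
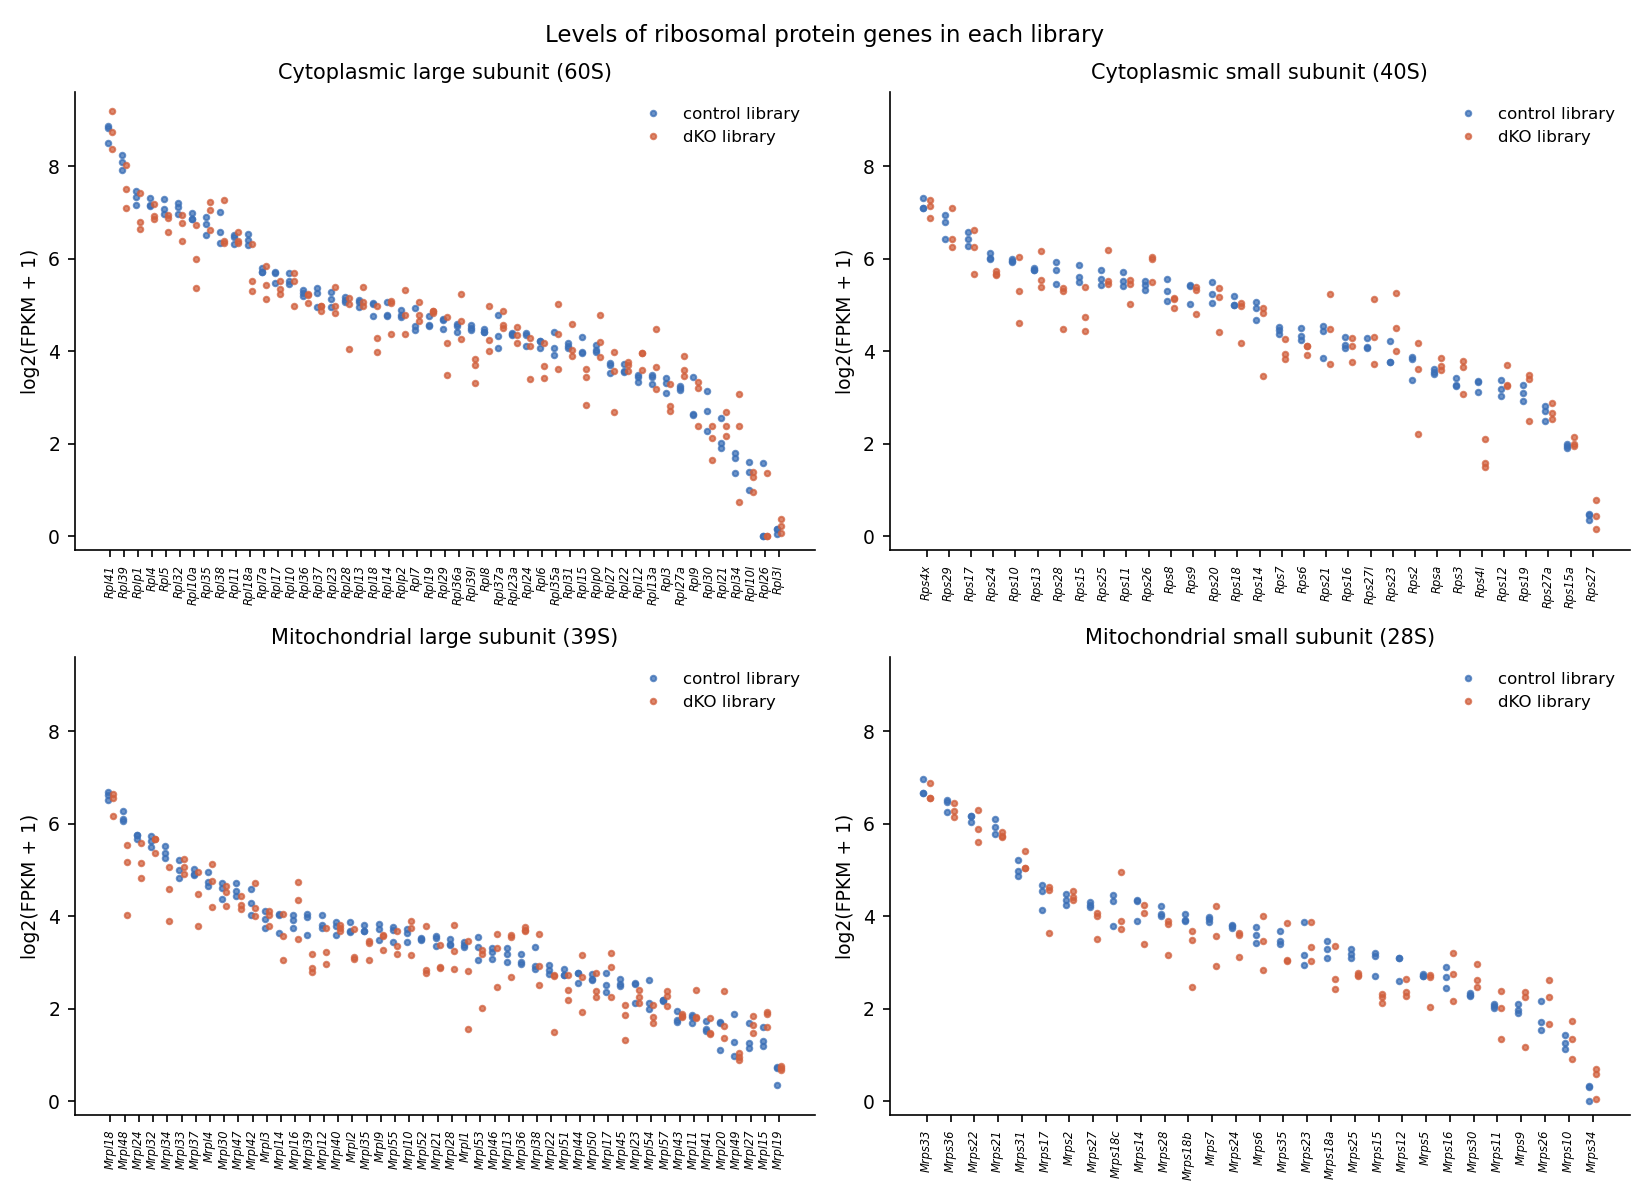
Levels of ribosomal protein genes as log2(FPKM + 1) on the y axis, with genes on the x axis in the order of their control mean, in 1 panel per subunit. Each point is 1 library (3 control, 3 dKO); the levels fall from 425 FPKM for Rpl41 to under 1 FPKM, and dKO points scatter more than control points.

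Rpl41, a peptide of the 60S subunit that is among the shortest proteins known, was the highest member in every library. It stood at 464, 361 and 450.0 FPKM in control libraries and at 331, 426 and 585 FPKM in dKO oocytes (log2 change 0.04 ± 0.23 SE; limma adjusted p = 0.908). Both groups overlapped, and the dKO libraries lay on both sides of the controls. Rpl39, a small protein that lines the peptide exit tunnel, was next, at 303, 240.05 and 269 FPKM in controls and 258, 180.3 and 136 FPKM in dKO oocytes (log2 change -0.54 ± 0.24 SE; limma adjusted p = 0.138). Its dKO library 1 lay within the controls, and without that library Rpl39 passed the threshold (log2 change -0.78; limma adjusted p = 0.0281). Rplp1, a protein of the acidic stalk that recruits elongation factors, was the third, with control means and SD of 159 ± 16.6 FPKM against 126 ± 38.5 FPKM in dKO oocytes (SD, n = 3).

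Among mitochondrial members the 3 highest control means were those of Mrps33 (108 ± 14.0 FPKM), Mrpl18 (96.1 ± 5.95 FPKM) and Mrps36 (84.0 ± 7.89 FPKM; SD, n = 3). The intervals of one SD around these means overlap between neighbours in that order. Mrps33 belongs to the 28S subunit, Mrpl18 binds structural RNA of the 39S subunit, and Mrps36, named as a 28S protein, is now known as a part of the alpha-ketoglutarate dehydrogenase complex. The corresponding dKO means were 101 ± 13.9, 87.3 ± 14.6 and 77.6 ± 8.21 FPKM, and none of the 3 differed at the threshold (limma adjusted p = 0.712, 0.554 and 0.631).

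At the low end, the tested cytoplasmic members with the lowest control means were Rpl10l (1.55 FPKM), Rpl34 (2.09 FPKM) and Rps15a (2.87 FPKM), and the mitochondrial ones Mrps10 (1.43 FPKM), Mrpl15 (1.61 FPKM) and Mrpl27 (1.61 FPKM). None passed the threshold. Rpl34, of the 60S subunit, varied most among them, at 2.21, 2.48 and 1.58 FPKM in controls and 7.43, 4.23 and 0.670 FPKM in dKO oocytes. Without dKO replicate 3 it passed the threshold as higher (log2 change 1.11; limma adjusted p = 0.0233). Rps15a, of the 40S body, stayed between 2.76 and 3.42 FPKM in all 6 libraries.

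5 members did not reach the filter of 1 FPKM in 3 libraries. Rpl26, a 60S protein near the exit tunnel, was listed at 0.000300, 2.002 and 0.000286 FPKM in control libraries and at 0.000506, 0.000356 and 1.599 FPKM in dKO oocytes. Since every cell needs this protein, values so near 0 can be failed estimates, and Rpl26 is not compared. Rps27, of the 40S subunit, was between 0.270 and 0.406 FPKM in controls and between 0.113 and 0.738 FPKM in dKO oocytes. Rpl3l, a paralog of Rpl3 known from striated muscle, stood at 0.0906 ± 0.0415 and 0.178 ± 0.129 FPKM, Mrpl19 at 0.540 ± 0.220 and 0.652 ± 0.0597 FPKM and Mrps34 at 0.163 ± 0.141 and 0.397 ± 0.312 FPKM (control and dKO; SD, n = 3).

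How reads of similar genes were shared out bears on these levels. By coding sequence, 74 of the 80 cytoplasmic members with one had at least 1 annotated copy elsewhere in the genome with at least 95% identity over at least 80% of its length. The median was 5 copies, and Rpl21 had the most, with 57. Of the 77 mitochondrial members 62 had none. Exons of 37 cytoplasmic and 32 mitochondrial members overlap another annotated gene. Whether strand was used and how multiply aligned reads were treated is not given in the sources used here, so a level of a member with copies, or with an overlapping gene, is uncertain to that extent.

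The comparison of dKO with control oocytes asks whether loss of PRC1 activity shifts the stored ribosomal protein messages, and whether both ribosomes shift alike. Few members changed. Of 78 cytoplasmic members tested, 0 rose and 4 fell (Rps4l, Rpl39l, Rps15 and Rpl15), and of 75 mitochondrial members 1 rose (Mrpl36) and 4 fell (Mrpl48, Mrpl39, Mrpl45 and Mrps15). Over all 11334 genes tested 14.0% rose and 7.04% fell. Shares of falling members were near that background, at 5.13% of the cytoplasmic and 5.33% of the mitochondrial ones, and shares of rising members were below it, at 0% and 1.33%. Calls rest on limma with Benjamini-Hochberg adjustment over all genes tested. At an unadjusted p under 0.05 15 cytoplasmic and 10 mitochondrial members differed in either direction (19.2% and 13.3%), against 35.5% of all genes tested. With the replicate number as a block, 5 cytoplasmic and 5 mitochondrial members fell, Rpl10a and Mrpl34 being added, and 0 and 1 rose, against 7.83% of all genes that fell and 14.8% that rose.

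The number of falls depended on single libraries. Without control replicate 1, 2 or 3, 2, 2 and 1 cytoplasmic members fell and 0, 1 and 1 mitochondrial members, against 2.28%, 2.31% and 2.04% of all genes, and Mrpl36 was no longer past the threshold. Without dKO replicate 1 these counts were 4 and 2, against 5.06%. Without dKO replicate 2, 12 cytoplasmic and 10 mitochondrial members fell, against 12.9% of all genes, and 1 of each rose, against 13.8%. Without dKO replicate 3, 2 cytoplasmic and 3 mitochondrial members fell, against 8.0%, and 3 cytoplasmic (Rpl12, Rpl34 and Rps23) and 2 mitochondrial members (Mrpl16 and Mrpl36) rose, against 16.5%. Rps4l kept its call in all 6 of these removals, Rpl39l in 5, Mrpl39 in 4, Mrps15 and Mrpl36 in 3, Mrpl48 in 2 and Rps15, Rpl15 and Mrpl45 in 1.

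**Figure D2:**
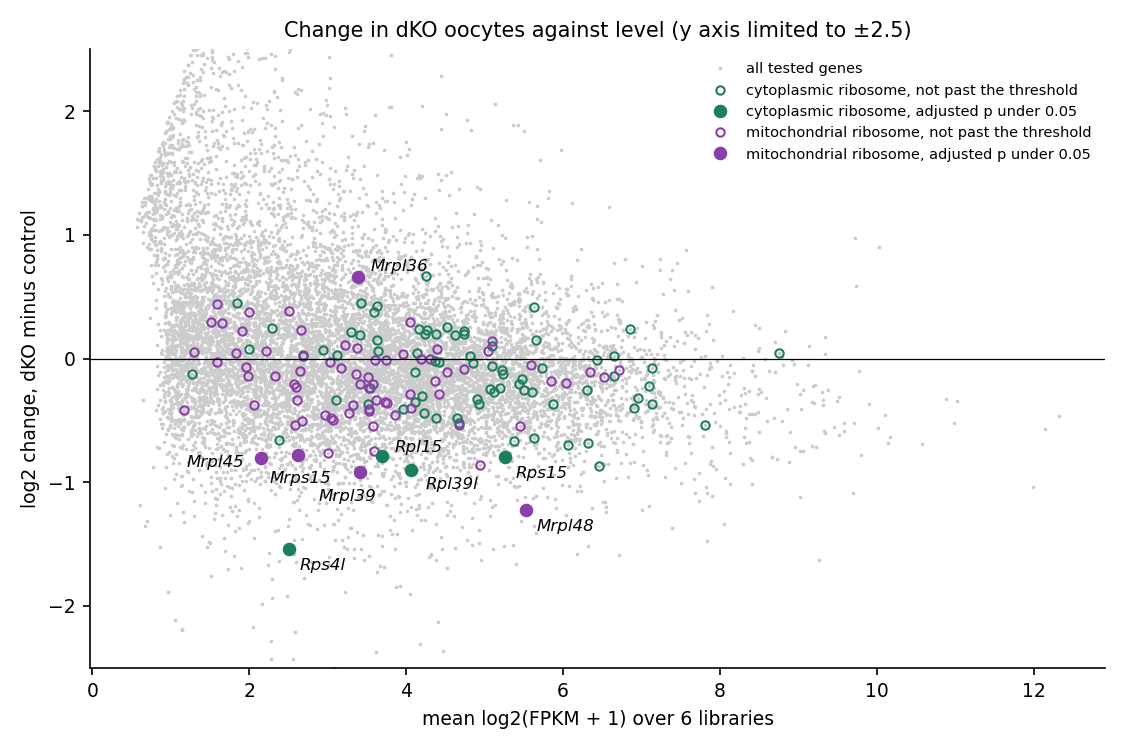
Log2 change (dKO minus control) on the y axis against the mean log2(FPKM + 1) over 6 libraries on the x axis, with grey points for all 11334 genes tested, green circles for 78 cytoplasmic and purple circles for 75 mitochondrial members, and filled circles for those past the threshold. The y axis is limited, so that changes beyond it are not shown; 8 filled circles lie below 0 and Mrpl36 alone lies above it.

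For most members that did not pass the threshold the data bound the change. The median SE of the log2 change was 0.22 for cytoplasmic and 0.23 for mitochondrial members. For 59 of 74 cytoplasmic and 58 of 70 mitochondrial members that did not pass, the 95% interval of the change lay within 1 log2 unit on either side of 0, and for 70 and 69 of them it excluded a rise of 1 log2 unit. These intervals are per gene and not adjusted over genes. They are of log2(FPKM + 1), which understates changes of low genes, so they bound the FPKM of low members less well. Below 3 FPKM stood 2 cytoplasmic and 8 mitochondrial members tested.

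The largest fall was that of Rps4l, a copy of the X-linked gene Rps4x, whose protein sits in the 40S body. Rps4l stood at 7.72, 9.32 and 9.07 FPKM in control libraries and at 1.85, 3.31 and 1.99 FPKM in dKO libraries. Its highest dKO library was well below the lowest control, and the dKO mean was 27.4% of the control mean. On the log2 scale the change was -1.54 ± 0.23 (SE; limma adjusted p = 0.00160), and it stayed past the threshold in all 9 alternatives with all libraries and in all 6 with 1 library left out. GENCODE M21 lists Rps4l as a transcribed processed pseudogene, and its transcript shares 79.6% of 789 aligned bases with the Rps4x coding sequence. Rps4x itself stood at 159, 135 and 136 FPKM in control libraries and at 140.05, 152 and 117 FPKM in dKO oocytes, which overlap (log2 change -0.08 ± 0.16 SE; limma adjusted p = 0.764). Rps4l amounted to 4.86%, 6.88% and 6.68% of the Rps4x level in controls and 1.32%, 2.18% and 1.70% in dKO oocytes, so the share was lower in every dKO library.

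Rpl39l, a paralog of Rpl39 known for its use in male germ cells, fell as well. It stood at 21.6, 21.1 and 22.9 FPKM in control libraries and at 8.90, 11.96 and 13.2 FPKM in dKO oocytes. Controls lay close together and above every dKO library. On the log2 scale the change was -0.90 ± 0.18 (SE; limma adjusted p = 0.00890), and it missed the threshold only without control replicate 3 (limma adjusted p = 0.0516) among the 15 alternatives run. Rpl39l amounted to 7.13%, 8.78% and 8.501% of Rpl39 in controls and to 3.45%, 6.64% and 9.71% in dKO oocytes. This share overlapped between the groups, because Rpl39 was lowest in dKO replicate 3, where Rpl39l was highest among the dKO libraries. The coding sequences of both genes, from GENCODE M21 on GRCm38, are shown because reads within them can be told apart only where they differ. The transcripts have 612 (Rpl39) and 805 bases (Rpl39l), and their parts outside the coding sequence were not compared. Each coding sequence has 153 bases, of which 130 are the same and 23 differ (85.0% identity), and the differing bases are in capitals.
Rpl39: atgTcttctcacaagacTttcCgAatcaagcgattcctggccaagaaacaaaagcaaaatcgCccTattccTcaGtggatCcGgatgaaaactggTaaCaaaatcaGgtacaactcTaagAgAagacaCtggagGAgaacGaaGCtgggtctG
Rpl39l: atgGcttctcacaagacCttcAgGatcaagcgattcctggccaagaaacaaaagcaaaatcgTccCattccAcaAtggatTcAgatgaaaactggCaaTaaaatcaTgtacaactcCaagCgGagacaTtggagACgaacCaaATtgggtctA
No copy of Rpl39l met the 95% rule, whereas Rpl39 had 9.

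**Figure D3:**
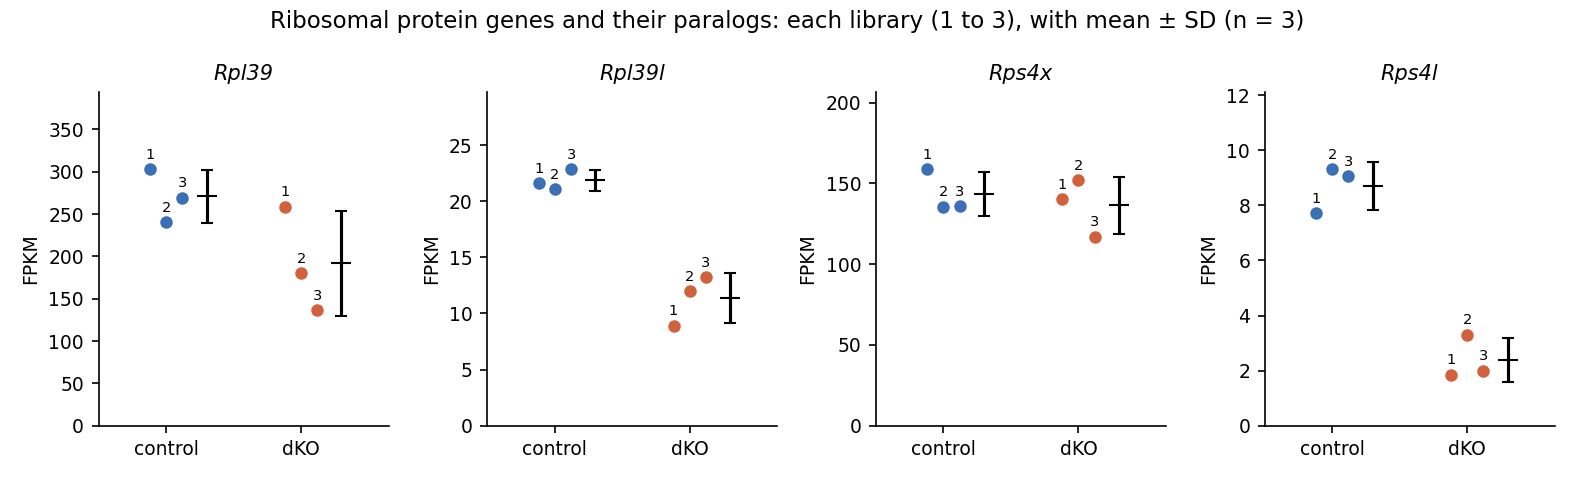
FPKM of Rpl39, Rpl39l, Rps4x and Rps4l on the y axis, in each of 3 control and 3 dKO libraries (numbered points) with the mean ± SD beside them. Control and dKO points are apart for Rpl39l and Rps4l and overlap for Rpl39 and Rps4x; each panel has its own scale from 0.

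The other paralogs did not pass the threshold. Rpl10l, a retrogene of the X-linked Rpl10 that is needed in male meiosis, stood at 2.04, 0.9997 and 1.62 FPKM in control libraries and at 1.43, 1.61 and 0.943 FPKM in dKO oocytes. Rps27l, known as a p53 target, stood at 18.6, 15.8 and 16.1 FPKM in control libraries and at 33.9, 18.7 and 12.2 FPKM in dKO oocytes, on both sides of the controls (log2 change 0.23 ± 0.31 SE; limma adjusted p = 0.630). Levels of Rps27l and Rps27 are not compared, since Rps27, whose protein every cell needs, has 4 near-identical copies and may be a failed estimate, while Rps27l has none. Their coding sequences share 76.2% of 252 bases. Of the 8 paralogs listed, which also include Rpl7l1, Rpl22l1 and Rpl36al outside the symbol rule, 7 were tested. Of these 0 rose and 2 fell (28.6%), against 14.0% and 7.04% of all genes.

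Without the 5 paralogs, 2 of 74 cytoplasmic members tested fell (2.70%, against 7.04% of all genes), Rps15 and Rpl15. Rps15, a protein of the 40S head near the decoding site, stood at 57.5, 47.5 and 44.2 FPKM in control libraries and at 25.7, 41.1 and 20.7 FPKM in dKO oocytes. Its dKO library 2 lay just under the lowest control, the others far below. On the log2 scale the change was -0.80 ± 0.24 (SE; limma adjusted p = 0.0478). Its call was lost with a pseudocount of 0.1 (0.0504), no filter (0.110), a filter of 5 FPKM (0.0585), quantile normalization (0.0616) or array weights (0.0604) and without any 1 library except dKO replicate 2 (limma adjusted p up to 0.167). Rpl15, of the 60S core, stood at 14.9, 18.9 and 14.5 FPKM in control libraries and at 11.3, 9.89 and 6.11 FPKM in dKO oocytes, with no overlap (log2 change -0.79 ± 0.24 SE; limma adjusted p = 0.0459). It missed the threshold with no filter (0.0896) or a filter of 5 FPKM (0.0552) and without any 1 library except dKO replicate 1 (limma adjusted p up to 0.176). Rpl15 has 13 near-identical copies and Rps15 has 3, and Rpl15 exons overlap Nkiras1 on the other strand.

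Rpl10a, the protein of the L1 stalk that handles spent tRNA, had the largest fall among cytoplasmic members that did not pass. It is named after its values were seen. It stood at 116, 114 and 125 FPKM in control libraries and at 62.6, 104 and 40.2 FPKM in dKO oocytes, without overlap, and its spread among dKO libraries was wide (log2 change -0.87 ± 0.29 SE; limma adjusted p = 0.0678). With the replicate block it fell (limma adjusted p = 0.0385), and without dKO replicate 2 it fell (limma adjusted p = 0.00705). Rps23, a decoding-site protein of the 40S body, had the largest positive change of all 153 members tested (0.66 ± 0.30 SE), at 17.6, 12.7 and 12.7 FPKM in controls and 37.2, 21.6 and 15.01 FPKM in dKO oocytes. Its groups overlapped, and it did not pass (limma adjusted p = 0.152).

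Few members of the groups by role passed the threshold. Of the 5S RNP, which carries the 5S RNA into the 60S subunit and can bind Mdm2, Rpl11 stood at 90.8, 79.2 and 87.8 FPKM in controls and 79.3, 82.4 and 94.0 FPKM in dKO oocytes (log2 change -0.01 ± 0.15 SE). Rpl5 stood at 156, 125 and 134 FPKM in controls and 121, 116 and 94.5 FPKM in dKO oocytes, lower in every dKO library, and did not pass (log2 change -0.32 ± 0.16 SE; limma adjusted p = 0.197). Of the 4 acidic stalk members none passed. The stalk base Rplp0 was at 15.6 ± 0.876 and 19.2 ± 6.61 FPKM, and Rplp2, the partner of Rplp1, at 27.0 ± 1.66 and 28.5 ± 9.89 FPKM (control and dKO; SD, n = 3). Rpl12, at the foot of the stalk, was at 9.69 ± 0.549 and 13.4 ± 1.995 FPKM, higher in every dKO library, and did not pass (limma adjusted p = 0.132). It did without dKO replicate 3 (limma adjusted p = 0.0431).

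Of the 4 proteins near the peptidyl transferase centre (Rpl3, Rpl4, Rpl8 and Rpl10) 0 passed, with a median log2 change of -0.19. Of 6 tested proteins around the mouth of the exit tunnel 0 passed, with a median of 0.01. In the 40S head 1 of 14 fell (7.14%), Rps15, with a median of -0.20. In the 40S body and platform 0 of 15 passed, with a median of -0.13. By subunit the median log2 change was -0.06 for 47 members of the 60S and -0.14 for 31 of the 40S subunit. The median over all genes tested was -0.019, and 14.0% of them rose and 7.04% fell.

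Of the 4 mitochondrial members that fell, 3 were of the 39S and 1 of the 28S subunit. These are 6.38% of 47 and 3.57% of 28 members tested, against 7.04% of all genes. Mrpl48, a mitochondria-specific protein, stood at 76.0, 65.2 and 67.4 FPKM in control libraries and at 34.9, 45.2 and 15.3 FPKM in dKO oocytes. Controls were close together, and the dKO libraries were spread widely below them (log2 change -1.23 ± 0.33 SE; limma adjusted p = 0.0312, and 0.00971 with the replicate block). It missed the threshold with no filter (limma adjusted p = 0.0990) and without any 1 control or dKO replicate 1 (up to 0.103). Mrpl48 has 1 near-identical copy, and its exons overlap Rab6a on the other strand. By control mean it was the highest but 3 of the 77 mitochondrial members.

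Mrpl39 stood at 14.8, 11.1 and 15.4 FPKM in control libraries and at 8.07, 6.36 and 5.93 FPKM in dKO oocytes. All dKO libraries were below all controls, with a dKO mean of 49.3% of the control mean (log2 change -0.92 ± 0.20 SE; limma adjusted p = 0.0133). Among the 15 alternatives run it missed the threshold only without control replicate 1 or 3 (limma adjusted p = 0.0704 and 0.0737). Mrpl45, which holds the mitochondrial ribosome at the inner membrane, stood at 4.61, 4.78 and 5.28 FPKM in control libraries and at 2.63, 3.21 and 1.49 FPKM in dKO oocytes. Its groups did not overlap (log2 change -0.81 ± 0.24 SE; limma adjusted p = 0.0422). It missed the threshold with a pseudocount of 0.1 (0.0513), no filter (0.0900) or array weights (0.0549) and without any 1 library except dKO replicate 2 (limma adjusted p up to 0.141).

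Of the 28S subunit Mrps15, which has a bacterial counterpart, was the member that fell. It stood at 8.19, 7.81 and 5.59 FPKM in control libraries and at 3.38, 3.97 and 3.80 FPKM in dKO oocytes, with dKO libraries close together under the lowest control (log2 change -0.78 ± 0.21 SE; limma adjusted p = 0.0292). Its call was lost without control replicate 1 or 2 or dKO replicate 1 (the highest limma adjusted p was 0.133). None of Mrpl39, Mrpl45 and Mrps15 has a near-identical copy or an overlapping exon in the annotation.

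Mrpl36, the counterpart of a small zinc-binding protein of the bacterial large subunit, was the single member that rose. It stood at 8.11, 6.83 and 7.09 FPKM in control libraries and at 12.1, 12.7 and 11.7 FPKM in dKO oocytes. Both groups were tight and apart (log2 change 0.66 ± 0.17 SE; limma adjusted p = 0.0262). It missed the threshold without any 1 control (limma adjusted p up to 0.130) and kept it in all 9 alternatives with all libraries. Exons of Mrpl36 overlap Ndufs6 on the other strand.

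**Figure D4:**
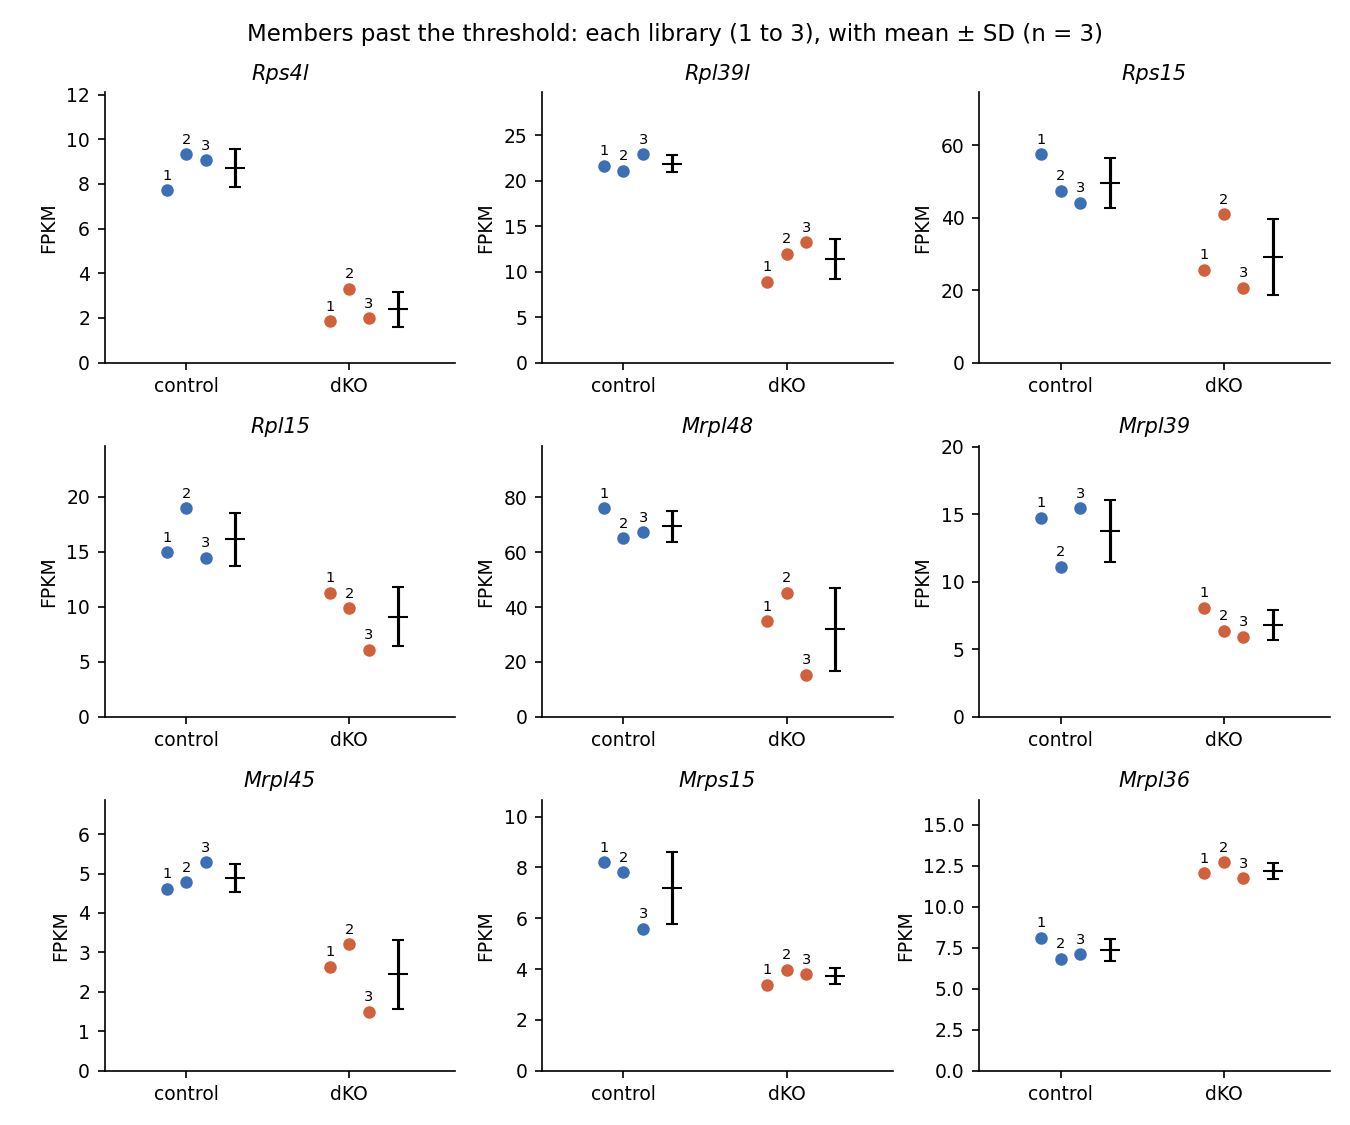
FPKM on the y axis of the 9 members past the threshold, in each of 3 control and 3 dKO libraries (numbered points) with the mean ± SD beside them. Points of the groups do not overlap in any panel, Mrpl36 is the panel in which dKO points are higher, and each panel has its own scale from 0.

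Mrpl34, of the 39S subunit, lay just outside the threshold and is named after its values were seen. It stood at 44.5, 40.1 and 37.0 FPKM in control libraries and at 23.1, 32.4 and 13.9 FPKM in dKO oocytes (log2 change -0.86 ± 0.27 SE; limma adjusted p = 0.0530). With the replicate block it fell (limma adjusted p = 0.0221). Of 45 mitochondrial members with a bacterial counterpart 1 rose and 1 fell (2.22% each, median log2 change -0.15), and of 27 mitochondria-specific members 0 rose and 3 fell (11.1%, median -0.21), against 14.0% and 7.04% of all genes. The difference between these 2 sets was not tested. By subunit, as set by the symbol, the median was -0.14 for 47 Mrpl members (39S) and -0.18 for 28 Mrps members (28S, Mrps36 included).

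Over all members tested, those past the threshold included, the median log2 change was -0.12 for cytoplasmic and -0.15 for mitochondrial members, against -0.019 over all genes tested. Over all genes from 10 to 30 FPKM it was -0.10 and from 30 to 100 FPKM -0.17. These ranges hold 31 and 24 of the cytoplasmic but 26 and 10 of the mitochondrial members tested. Of the mitochondrial members, 8 stood below 3 FPKM and 30 from 3 to 10 FPKM, where the median over all genes was 0.23 and 0.06. The part of level in the members' medians was not tested. Negative values were found for 48 of 78 cytoplasmic (61.5%) and 56 of 75 mitochondrial members (74.7%), against 51.4% of all genes tested. Both medians were negative under quantile normalization (-0.05 and -0.25), median-ratio scaling (-0.12 and -0.15) and array weights (-0.04 and -0.12). Centring on the mean of each library, an alternative added after seeing the data, moved the median of all genes to -0.12 and those of the members to -0.22 and -0.26. Without dKO replicate 3 the medians were -0.0040 and -0.10, without dKO replicate 2 -0.23 and -0.30, and without control replicate 2 -0.18 and -0.19. Among cytoplasmic members without a near-identical copy the median was -0.03, and among such mitochondrial members it was -0.19.

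Every dKO library lay below every control for 12 cytoplasmic (15.4%) and 14 mitochondrial members (18.7%), against 19.2% of all genes tested. The reverse held for 3 (3.85%) and 2 members (2.67%), against 22.3% of all genes. Beside the 4 that passed, the cytoplasmic members lower in every dKO library included Rpl10a, Rpl5, Rpl32, Rps6 and Rps28, and those higher in every dKO library were Rpl12, Rpl19 and Rpl27a. The mitochondrial ones were Mrpl22, Mrpl24, Mrpl34, Mrpl35, Mrpl47, Mrps18b, Mrps24, Mrps25, Mrps27 and Mrps28 on the lower side and Mrps30 beside Mrpl36 on the higher.

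Level moved with the change. Across genes, the Spearman correlation of control mean with log2 change was -0.374 over 78 cytoplasmic and -0.268 over 75 mitochondrial members. Both quantities use the same control values, so part of such a correlation is built in. Over all genes tested the median log2 change was 0.23 below 3 FPKM by mean over all libraries, 0.06 from 3 to 10 FPKM, -0.10 from 10 to 30 FPKM, -0.17 from 30 to 100 FPKM and -0.29 from 100 FPKM. The share that rose went from 26.5% to 2.48% across these ranges, and the share that fell from 3.73% to 14.5%. Of the cytoplasmic members 31 stood from 10 to 30 FPKM, 24 from 30 to 100 FPKM and 10 at 100 FPKM or more, of which 0 in the highest range passed the threshold. Of the mitochondrial members 30 stood from 3 to 10 FPKM and 26 from 10 to 30 FPKM.

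The dKO libraries differed among themselves more at ribosomal protein genes than the controls did. The median SD of log2(FPKM + 1) was 0.131 for cytoplasmic and 0.140 for mitochondrial members among controls and 0.372 and 0.369 among dKO libraries, against 0.141 and 0.316 over all genes tested. In dKO replicate 3, 54 of 78 cytoplasmic (69.2%) and 50 of 75 mitochondrial members (66.7%) lay below the lowest control, against 44.9% of all genes tested. Its median deviation from the control mean was -0.38 and -0.39 log2 units, against -0.08 over all genes. In dKO replicate 2 these median deviations were 0.02 and 0.03, against 0.08 over all genes, and 24.4% of cytoplasmic and 30.7% of mitochondrial members lay below the lowest control, against 30.9% of all genes. dKO replicate 1 was between them, at -0.06 and -0.12. Its depth was the lowest of the 6 libraries, and that of dKO replicate 3 the highest.

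**Figure D5:**
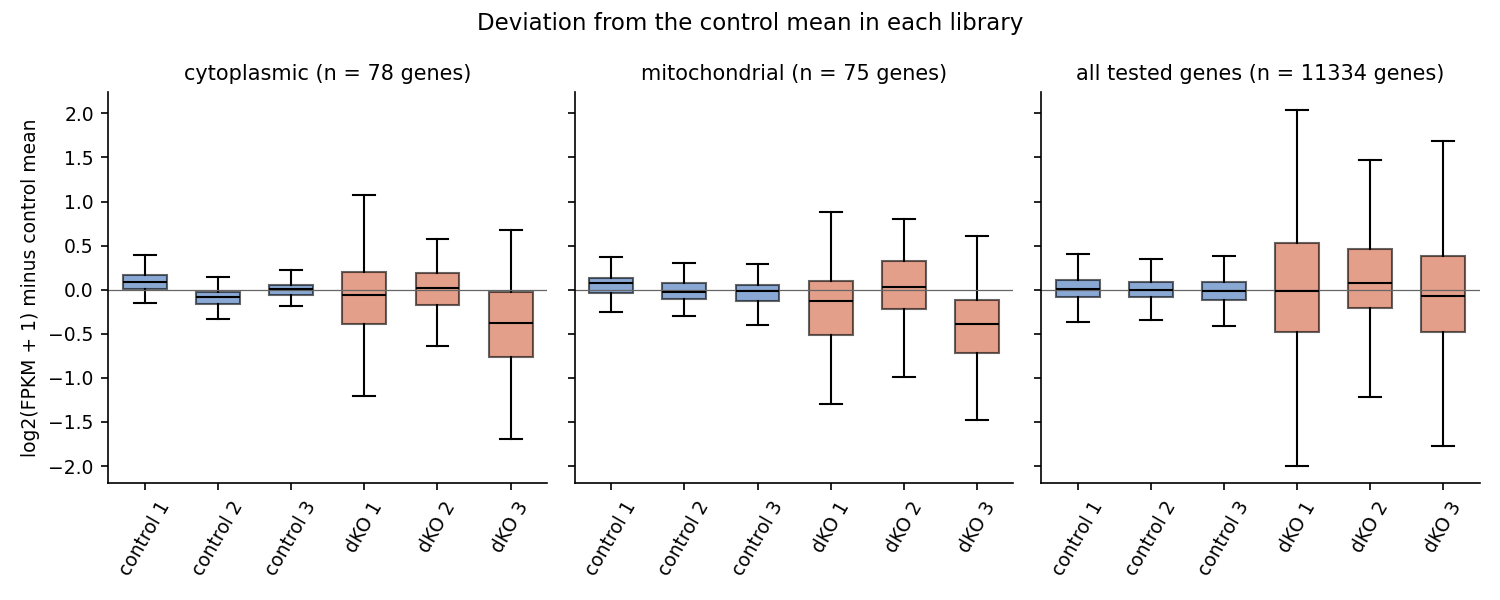
Deviation of log2(FPKM + 1) from the control mean on the y axis, per library on the x axis, for 78 cytoplasmic members, 75 mitochondrial members and all 11334 genes tested. Boxes span the middle quartiles with the median as a line and whiskers reach 1.5 box lengths; the boxes of dKO replicate 3 lie lowest for both ribosomes, with medians of -0.38 and -0.39, and those of dKO replicate 2 straddle 0.

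As a share of all FPKM the ribosomal protein messages overlapped between the libraries of the groups, for both ribosomes. Cytoplasmic members summed to 4013, 3407 and 3781 FPKM in controls and to 3343, 3554 and 3089 FPKM in dKO oocytes, which is 1.16 ± 0.0958% and 1.15 ± 0.0460% of all FPKM (SD, n = 3). Mitochondrial members summed to 1364, 1291 and 1338 FPKM in controls and to 1198, 1270.4 and 981 FPKM in dKO oocytes, which is 0.414 ± 0.0126% and 0.397 ± 0.0406% (SD, n = 3). The ratio of the cytoplasmic to the mitochondrial sum was 2.94, 2.64 and 2.83 in controls and 2.79, 2.80 and 3.15 in dKO oocytes. Means of the ratio were 2.80 ± 0.153 and 2.91 ± 0.204 (SD, n = 3), a difference within the spread of either group (two-sided exact permutation p = 0.60). It was 0.30 after quantile normalization, 0.18 without control replicate 1, 0.029 without control replicate 2, 0.17 without dKO replicate 1 or 2 and -0.0077 without dKO replicate 3. The sums rest on few genes, since the 3 highest members made up 22.9% of the cytoplasmic and 21.6% of the mitochondrial control sum. The ratio of the median levels, added after seeing the data, was 2.61, 2.19 and 2.31 in controls and 3.83, 2.62 and 2.74 in dKO oocytes. Every dKO library lay above every control, though dKO replicate 2 only just. Means of this ratio were 2.37 ± 0.214 and 3.06 ± 0.667 (SD, n = 3). With 3 libraries a group the two-sided exact permutation p of 0.10 is as low as this design allows, so this test cannot decide on a difference. The difference of the means, 0.69, became 0.31 without dKO replicate 1 and 0.37 with a filter of 5 FPKM.

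Sequence around the start sites was compared between both ribosomes, in windows of 250 bases before to 50 after the annotated start (RefSeq, GRCm38.p6), which were matched for 60 cytoplasmic and 68 mitochondrial members. Counts are of genes, and a gene counts if the window of any of its listed starts matches, so genes with more starts have more chances. A run of at least 8 pyrimidines (C or T) was sought on the transcribed strand within 20 bases of the start. It stood in 48.3% of the cytoplasmic and 19.1% of the mitochondrial members, against 18.4% of 27025 genes. The same run on the opposite strand stood in 8.33%, 11.8% and 20.2%. CCGGAAG, searched on both strands, stood in 41.7% of cytoplasmic and 36.8% of mitochondrial members, against 9.93% of all genes. AAGATGG, searched in the same way, stood in 15.0% and 19.1%, against 7.28%. The median number of CG dinucleotides, taken from the window with most in each gene, was 21 in both sets and 8 over all genes. A match of letters is a description and shows no binding. Stretches of 60 bases before to 15 after the start are shown for 5 members, with pyrimidine runs of at least 8 in capitals. They are written 5′ to 3′ on the strand of the gene. Of these members Rpl39 did not pass the threshold, and none of the mitochondrial members that fell is shown.
Rpl15 (chr14:18270972-18271046, minus strand): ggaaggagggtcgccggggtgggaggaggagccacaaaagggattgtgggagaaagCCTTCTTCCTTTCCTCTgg
Rps15 (chr10:80292371-80292445, plus strand): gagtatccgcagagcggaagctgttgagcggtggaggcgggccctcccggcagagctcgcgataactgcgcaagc
Rpl39 (chrX:37085208-37085282, minus strand): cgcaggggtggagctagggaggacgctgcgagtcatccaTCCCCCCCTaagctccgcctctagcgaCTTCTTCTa
Rpl39l (chr16:10170168-10170242, plus strand): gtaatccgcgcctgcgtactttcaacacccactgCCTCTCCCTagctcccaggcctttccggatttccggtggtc
Mrpl36 (chr13:73330949-73331023, plus strand): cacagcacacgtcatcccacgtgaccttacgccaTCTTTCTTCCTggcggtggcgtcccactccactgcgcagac
Rpl15 and Rpl39 carry a run across or close to the start, in Rpl39l and Mrpl36 it lies farther upstream, and the Rps15 stretch holds none. The members that fell thus include windows with and without such a run near the start.

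Ribosomal proteins with other names were tested beside the members. Of the cytoplasmic ones Fau and Gnb2l1 did not pass. Of the 7 mitochondrial ones, among which Mrpl57 is also a member by symbol, 0 rose and 1 fell (14.3%, against 7.04% of all genes). This was Dap3, a GTP-binding protein of the 28S subunit, which stood at 12.9, 11.6 and 11.8 FPKM in control libraries and at 6.32, 8.30 and 7.79 FPKM in dKO oocytes (log2 change -0.63 ± 0.18 SE; limma adjusted p = 0.0381). With the replicate block Dap3 did not pass (limma adjusted p = 0.0598), nor without any 1 control or dKO replicate 1 (up to 0.155).

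Genes that act on ribosomes were counted against the same background of 14.0% of all genes that rose and 7.04% that fell. Of 37 translation initiation and elongation factors 1 rose (2.70%) and 2 fell (5.41%), with a median log2 change of -0.14. Eif1a, of the family that acts in the search for the start codon, rose from 1.92 ± 0.458 to 4.80 ± 1.92 FPKM, Eif3k, a subunit of eIF3, fell from 41.4 ± 3.61 to 26.6 ± 5.44 FPKM and Eif4b, a helicase cofactor, from 82.5 ± 2.24 to 57.7 ± 9.03 FPKM (SD, n = 3). With the replicate block Eif4b did not pass (limma adjusted p = 0.0688). Eif1a lost its call without any 1 control or dKO replicate 1, and Eif3k and Eif4b without any 1 library except dKO replicate 2 (the highest limma adjusted p was 0.122, 0.140 and 0.160). With no filter all 3 missed the threshold (0.0872, 0.0596 and 0.0572), as did Eif1a and Eif4b after quantile normalization (0.109 and 0.112), Eif3k and Eif4b with array weights (0.0564 and 0.0522) and Eif4b with a filter of 5 FPKM (0.0532; limma adjusted p).

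Of 50 ribosome biogenesis factors 3 rose (6.0%) and 0 fell, both below the background, and the median log2 change was 0.20. Grwd1, a chaperone of the 60S protein Rpl3, rose from 0.644 ± 0.0930 to 2.32 ± 0.756 FPKM and Rrp1, which acts in 60S maturation, from 7.67 ± 0.653 to 15.4 ± 5.90 FPKM (SD, n = 3). The third, Utp14a, acts in 40S maturation and is named after its values were seen. Every dKO library lay above every control for 11 of the 50 (22.0%), near the 22.3% of all genes, and below for 1 (2.0%), against 19.2%. Rrp1 lost its call without any 1 library except dKO replicate 2 and Grwd1 without control replicate 3 (the highest limma adjusted p was 0.137 and 0.0533). After quantile normalization both missed the threshold (0.0755 and 0.0895), and Rrp1 also with no filter (0.0911), a filter of 5 FPKM (0.0532), median-ratio scaling (0.0543) or centring (0.0753; limma adjusted p).

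Of 27 mitochondrial translation and assembly factors 0 rose and 6 fell (22.2%, against 7.04% of all genes), with a median log2 change of -0.25. Every dKO library lay below every control for 11 of them (40.7%, against 19.2%) and above for 3 (11.1%, against 22.3%). Polrmt, the mitochondrial RNA polymerase, acts in transcription, but the list takes it in and it is among the 6. It stood at 4.57, 4.74 and 4.37 FPKM in control libraries and at 0.451, 1.07 and 1.248 FPKM in dKO oocytes (log2 change -1.56 ± 0.22 SE; limma adjusted p = 0.00121). Mtg2, a GTPase of 39S assembly, stood at 1.78, 3.55 and 2.15 FPKM in control libraries and at 0.287, 1.33 and 0.447 FPKM in dKO oocytes (log2 change -1.07 ± 0.28 SE; limma adjusted p = 0.0263). It lost its call without control replicate 2 or 3 or dKO replicate 1 or 3 (the highest limma adjusted p was 0.1001), with no filter (0.0833) or with array weights (0.0544). The other 4, chosen after their values were seen, were the release factor gene Mtrf1, the ribosomal RNA methyltransferase gene Nsun4, the helicase gene Ddx28 and the tRNA modification gene Mto1.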

How the data were processed

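Total RNA of 6 libraries (3 per group, 15 oocytes each) was amplified with the Ovation v2 kit and sequenced on a HiSeq after TruSeq preparation, per the labels' protocols. The authors deposited 1 table of FPKM values, and the submitters' processing notes name TopHat2 2.0.11, Cufflinks 2.0.2 and build mm9. The sources used here do not give the step of each tool, the annotation or the strand setting.

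Of 24525 rows, 497 that repeated a symbol and all its values were removed. The 11334 genes that reached 1 FPKM in 3 or more libraries were fitted as log2(FPKM + 1) with limma 3.58.1 in R 4.3.3 (lmFit, eBayes with trend, two-sided, no block), with Benjamini-Hochberg adjustment over all of them and a threshold of 0.05. Changes on this scale understate those of low genes. FPKM keep no absolute depth, so no counting interval is given.

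Per the labels, same-numbered libraries shared a lane, so the number pairs libraries, and the fit with a replicate block was an alternative. Deviations of same-numbered libraries correlated at 0.147, 0.107 and 0.0637. Copies were found with BLAST 2.17.0 and paralogs aligned with Biopython 1.88 on GRCm38, which gives no coordinate for the mm9 values. No protein sequence was used here. The members, lists and alternatives were chosen with earlier results of these data known. The rule for named genes takes, per ribosome, up to 8 rises and 8 falls past the threshold, the 3 highest and 3 lowest control means, members below the filter and all members of the 5S RNP, stalk and paralog lists, and from each list of other genes up to 2 rises and 2 falls or the highest mean. A few single-gene values that this rule or a count covers are not reported here.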

Additional observations from a re-analysis of the deposited data

How the results depend on the processing

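Alternatives changed the pseudocount, the filter, the scaling, the weights or the block, or left out 1 library, and 2 (centring on the mean and members without near-identical copies) were chosen after seeing the data. Both median changes and the differences of both ratios moved by less than 1 SD between replicates in every alternative run, which is wide: on leaving out 1 library the cytoplasmic median ranged from -0.23 to -0.0040, the mitochondrial one from -0.30 to -0.096, the difference of the ratio of sums from -0.0077 to 0.18 and that of the ratio of medians, added after seeing the data, from 0.31 to 0.92. Cytoplasmic falls numbered 2 of 73 with a filter of 5 FPKM and 7 of 78 with median-ratio scaling. They numbered 10 of 78 with centring on the mean and 1 of 5 among members without near-identical copies. Mitochondrial falls numbered 2 of 77 with no filter and 9 of 75 with centring. The share of all genes that fell was 7.54% with the filter of 5 FPKM and 8.28% with median-ratio scaling. It was 13.9% with centring and 2.68% with no filter. Over all genes, 655 rose with the filter of 5 FPKM, which tests fewer genes, and 1572 fell with centring, where 48.0% of the calls were rises, against 66.5% on the deposited scale and 52.6% after quantile normalization. The replicate block added Rpl10a and Mrpl34 and ended Dap3, Eif4b and the marker Bmp15 (limma adjusted p = 0.0740), and changed no other call of a gene named here. On leaving out 1 library, falls ranged from 231 to 1465 over all genes, from 1 to 12 among cytoplasmic and from 0 to 10 among mitochondrial members, and rises from 0 to 3 and from 0 to 2. Such fits have 5 libraries, so fewer residual degrees of freedom.

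Genes that did not pass changed sign in some alternatives. After quantile normalization the log2 changes were -0.19 (Rps15a), 0.067 (Mrps33), 0.021 (Mrpl18), 0.033 (Mrps36), -0.35 (Mrps10), -0.038 (Mrpl27), 0.14 (Rpl11) and -0.20 (Cd68). After centring they were -0.061 (Rpl41), -0.024 (Rps15a), -0.053 (Mrps10) and -0.081 (Rplp2). On leaving out 1 library they ranged from -0.29 to 0.013 (Rpl10l), from -0.084 to 0.037 (Rpl11), from -0.17 to 0.24 (Rpl41), from -0.23 to 0.25 (Rplp2), from -0.21 to 0.0079 (Mrps33), from -0.15 to 0.26 (Mrps10), from -0.18 to 0.58 (Cd68), from -0.053 to 1.11 (Rpl34), from -0.14 to 0.56 (Rps27l) and from -0.0090 to 0.44 (Rplp0). The cause of these changes was not tested. Absolute depth is unknown, and low members such as Rpl10l, Mrps10 and Mrpl15 are limited by it most.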
